A study of Homo sapiens with 3 samples.

Results

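Keratins are the intermediate filament proteins of epithelial cells, and their genes were described here in CAMA1, a long-established line of human breast cancer cells labelled as estrogen receptor-positive and FGFR1-amplified. The family was taken as every entry of the deposited count table whose symbol is KRT followed by a number and at most the letter A, B or C. This rule leaves out keratin-associated proteins and pseudogenes, and it found 55 genes among 26485 entries. Of these, 28 are type I keratins, 26 are type II keratins and 1, KRT222, was not placed in either type. The series holds 1 group of 3 libraries, labelled biological replicates, from untreated cells below passage 10 kept for 48 h in medium lacking estradiol, so levels and their spread between libraries are described and no treatment is compared.

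A keratin filament is built from heterodimers, each of 1 acidic type I chain and 1 neutral or basic type II chain, so a cell needs both types. The pair made is characteristic of an epithelium: KRT8 with KRT18 in simple epithelia, joined by KRT7 and KRT19 in ducts, KRT5 with KRT14 in basal and myoepithelial cells, KRT1 with KRT10 in the upper epidermis, and a separate set of hard keratins in hair and nail. In the breast, KRT7, KRT8, KRT18 and KRT19 mark luminal cells and KRT5, KRT14 and KRT17 mark basal cells. All type II genes described here lie in a cluster on chromosome 12 and nearly all type I genes in a cluster on chromosome 17. The type I gene KRT18 lies beside KRT8 on chromosome 12.

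The deposited counts summed to between 26473939 and 30745412 per library. All 8 luminal markers examined were at 10 TPM or above (a level formed from counts divided by gene length and scaled to the same total in each library). Their median was 258 TPM and that of 7 basal markers 4.23 TPM, against 7.93 TPM over all protein-coding entries. Of the 7 basal markers 6 had at least 10 counts in each library, as did 67.2% of protein-coding entries. The exception, CNN1, had 0, 1 and 0 counts. MYLK (31.8 ± 0.0968 TPM) and ACTA2 (31.7 ± 3.32 TPM) reached 10 TPM, while ITGA6, OXTR, TP63 and NGFR ran from 4.46 ± 0.182 down to 0.585 ± 0.199 TPM. Also above 10 TPM were CASP14 (44.3 ± 11.1 TPM), 1 of 6 keratinocyte markers, and COL1A1 (10.5 ± 0.270 TPM), 1 of 7 fibroblast markers. None of 6 immune and endothelial markers reached 10 counts in each library, and COL1A2, DCN, LUM and LOR had no counts. Errors are SD over the 3 libraries throughout. The labels do not give culture or sequencing dates, so the spread between replicates may be partly technical.

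Promoter windows are shown first, for keratin genes at very different levels. The letters marked in them occur in those of KRT10, KRT24 and KRT35, and not in those of KRT8 and KRT5. Each runs from 250 bases before to 50 bases after an annotated start (RefSeq, GRCh38.p14), on the minus strand of its chromosome and written 5′ to 3′. Capitals mark the letters TATAAA, searched for as the TATA box of the core promoter, on either strand. Other forms of the TATA box were not searched for, so a window without capitals may still hold one. KRT8 and KRT10 are shown as abundant and moderately abundant genes, KRT24 as a low one, and KRT5 (basal) and KRT35 (hair) as genes under the detection limit. The KRT8 window (chr12:52926420-52926719) belongs to 1 of the several starts in the deposited gene model. The share of the KRT8 level that comes from this start was not measured. The others lie at chr17:40822565-40822864 for KRT10, chr17:40703703-40704002 for KRT24, chr12:52520345-52520644 for KRT5 and chr17:41481102-41481401 for KRT35.
KRT8: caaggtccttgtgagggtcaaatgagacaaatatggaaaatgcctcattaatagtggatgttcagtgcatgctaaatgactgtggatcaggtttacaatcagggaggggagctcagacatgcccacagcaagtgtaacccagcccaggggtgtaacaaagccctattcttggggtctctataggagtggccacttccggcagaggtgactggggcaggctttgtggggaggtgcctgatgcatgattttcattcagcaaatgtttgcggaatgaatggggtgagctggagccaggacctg
KRT10: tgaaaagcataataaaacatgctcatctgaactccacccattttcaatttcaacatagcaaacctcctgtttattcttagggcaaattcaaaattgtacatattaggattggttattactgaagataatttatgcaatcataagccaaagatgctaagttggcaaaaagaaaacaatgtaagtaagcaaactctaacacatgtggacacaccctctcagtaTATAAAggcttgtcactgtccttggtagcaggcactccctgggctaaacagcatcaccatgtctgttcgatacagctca
KRT24: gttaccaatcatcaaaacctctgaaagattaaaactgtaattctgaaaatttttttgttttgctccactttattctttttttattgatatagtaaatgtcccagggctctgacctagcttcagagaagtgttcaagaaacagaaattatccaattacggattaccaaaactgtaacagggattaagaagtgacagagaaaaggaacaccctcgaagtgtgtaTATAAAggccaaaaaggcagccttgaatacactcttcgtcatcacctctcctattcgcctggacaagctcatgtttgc
KRT5: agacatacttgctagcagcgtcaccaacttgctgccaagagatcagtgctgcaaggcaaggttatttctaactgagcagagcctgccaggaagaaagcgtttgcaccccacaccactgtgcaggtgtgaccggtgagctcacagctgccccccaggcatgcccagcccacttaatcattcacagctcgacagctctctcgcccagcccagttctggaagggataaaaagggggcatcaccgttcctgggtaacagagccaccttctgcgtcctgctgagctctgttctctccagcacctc
KRT35: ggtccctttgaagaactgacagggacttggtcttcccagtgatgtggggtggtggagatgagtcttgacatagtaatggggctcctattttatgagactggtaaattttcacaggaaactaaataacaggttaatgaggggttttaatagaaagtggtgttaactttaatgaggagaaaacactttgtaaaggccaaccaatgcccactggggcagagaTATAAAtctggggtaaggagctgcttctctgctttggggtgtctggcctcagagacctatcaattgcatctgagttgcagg

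TATAAA stood at the usual distance before the start in many keratin windows. Each motif was searched on both strands, and no motif searched contains another. It was present in 21 of 38 windows of 34 keratin genes (55.3%), against 11.6% of 34943 windows of all genes. Within 35 to 25 bases before the start it was present in 16 of 38 keratin windows (42.1%) and in 2.64% of all windows. Among windows of detected keratin genes 2 of 5 held it there, those of KRT10 and KRT24, and among windows of the others 14 of 33 did. The KRT8 window among the 5 does not cover the other starts of that gene. The AP-1 letters TGANTCA were in 0 of 38 keratin windows and 7.72% of all windows, the AP-2 letters GCCNNNGGC in 5 (13.2%) and 23.2%, and the GC box GGGCGG in 6 (15.8%) and 44.9%. Keratin windows had a median GC content of 45.7%, against 58.7% over all windows. A match is a description of letters, and a missing match says only that these letters are not in this window. Windows of the other 21 keratin genes, KRT7, KRT18 and KRT19 among them, were not available here. Only 5 of the 17 detected keratin genes had a window, too few to compare detected genes with the others.

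Keratin expression in CAMA1 was narrow and of the simple epithelial kind. Of the 55 keratin genes 17 (30.9%) had at least 10 counts in each library and are called detected. Among protein-coding entries 67.2% met the same limit, and among all entries 54.9%. A further 6 genes were below that limit, and 32 never exceeded 3 counts, the number that a count of 0 still allows. Among protein-coding entries 24.0% were that low. The median over all 55 genes was 0.0283 TPM, against 7.93 TPM over 19148 protein-coding entries. The family as a whole held 0.803, 0.893 and 0.975% of all TPM in replicates 1, 2 and 3.

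KRT19, KRT8, KRT7 and KRT18, the 4 luminal keratins, made up 96.3 ± 0.493% of keratin TPM. KRT19 is the smallest type I keratin and lacks most of the tail domain. It stood highest at 2719, 3137 and 3912 TPM in replicates 1, 2 and 3, rank 15 among protein-coding entries. Replicate 3 was the highest and replicate 1 the lowest. KRT8, the type II chain of simple epithelia, was at 2308, 2546 and 2555 TPM, with replicate 1 below the other libraries. KRT7, the type II chain of ductal and glandular epithelia, was at 1699, 1830 and 1902 TPM. KRT18, the type I partner of KRT8, was at 968, 1068 and 1070.5 TPM, again lowest in replicate 1. The ranges of these 4 genes did not overlap. Their counts ran from 14712.5 for KRT18 in replicate 1 to 67953.5 for KRT8 in replicate 3.

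The order among these genes rests in part on the gene length used. Without division by length, KRT8 came first at 2110 CPM (counts scaled by the library total alone) and KRT19 second at 1809 CPM. With GENCODE exon lengths, which count more transcript forms, the order held, but KRT8 stood at 1113 TPM, KRT7 at 1030.4 TPM and KRT18 at 676 TPM. On hg38, KRT19 spans 41523617 to 41528389 on chromosome 17, and on chromosome 12 KRT7 spans 52233170 to 52248925, KRT8 52897187 to 52949866 and KRT18 52948871 to 52952901. An upstream exon of KRT8 shares 135 bases with KRT18 on the opposite strand. Per the annotation, 35.9% of the 50-base words in KRT18 transcripts and 16.2% of those in KRT8 transcripts also occur, on either strand, in a transcript of another gene. For KRT18, 326 of these words are shared with KRT8, which lies on the opposite strand. Reads of both genes could be divided, and whether the strand was used in counting is not stated.

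**Figure D1:**
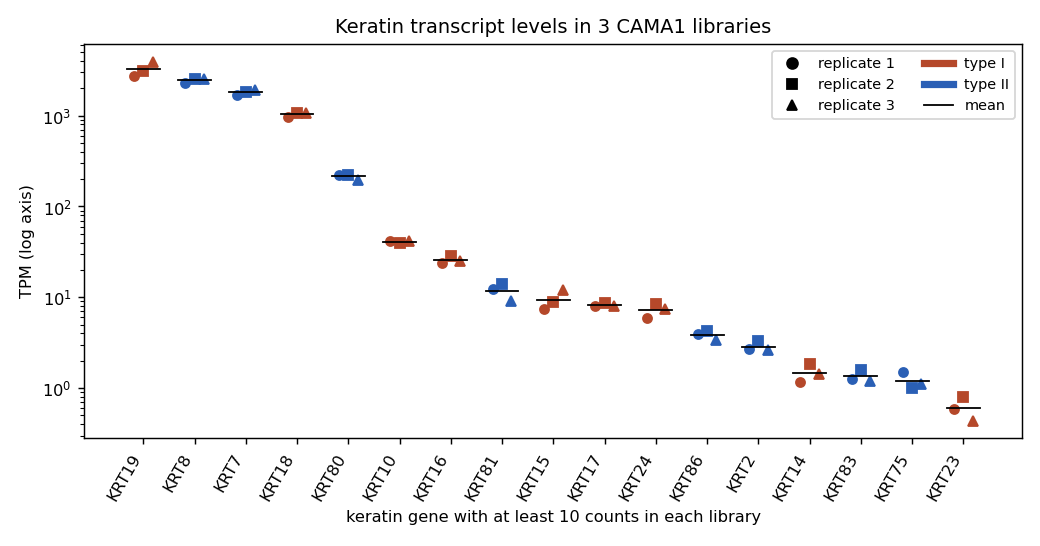
TPM on a log axis (y) for the 17 keratin genes with at least 10 counts in each library (x), with 1 point per library, a line at the mean, and colour for the keratin type. KRT19, KRT8, KRT7 and KRT18 lie near or above 1000 TPM, KRT80 at about 214 TPM, and the other 12 genes below 50 TPM.

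The other simple epithelial keratins were low or not detected. KRT23, a type I keratin of glandular epithelia, had 28, 39 and 25 counts (0.608 ± 0.184 TPM). Its deposited length includes a copy on an alternate contig, and with exons on the main chromosome alone, an alternative chosen after seeing the data, its level was 1.18 TPM. KRT20, the type I keratin of intestinal epithelium and urothelium, had 1 count in replicate 1 and none in the other libraries, below what this depth can detect. In all, 10 keratin genes carried such alternate copies, among them KRT20, KRT12 and 7 hair keratins. Their reads could match any copy, and how such reads were counted is not stated, so their counts may be too low.

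KRT80 was the only keratin outside the luminal 4 above 100 TPM. This type II keratin, found in many epithelia, was at 221, 225 and 197 TPM, lowest in replicate 3, and made up 2.43 ± 0.375% of keratin TPM. It lies at the outer end of the chromosome 12 cluster (52168996 to 52192000), next to KRT7. KRT10, the type I keratin of the upper epidermis, followed at 41.8, 39.5 and 42.0 TPM, without an evident outlying library. It shares 70 exon bases with TMEM99 on the opposite strand.

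**Figure D2:**
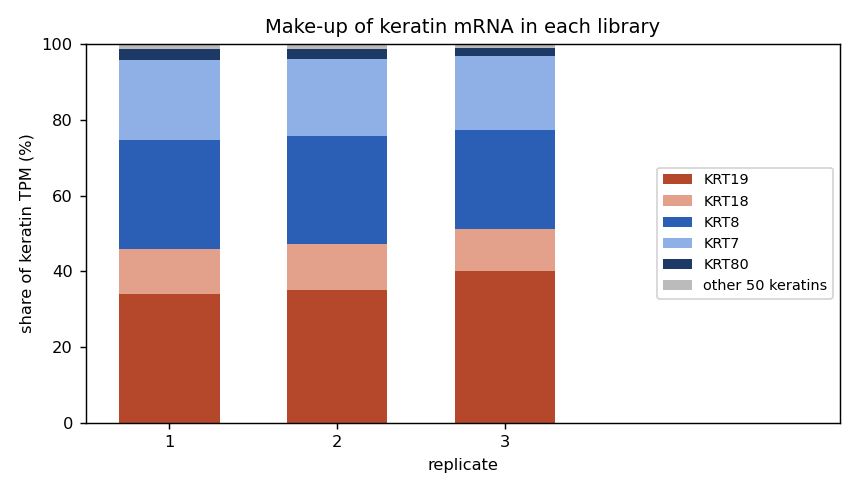
Share of summed keratin TPM in percent (y) in replicates 1 to 3 (x), stacked by gene. KRT19 takes 33.9, 35.1 and 40.1%, and the 50 keratins outside the 5 named ones together 1.40, 1.37 and 1.18%.

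Among keratins of stratified epithelia, 6 of 9 type I genes were detected, and 2 of 13 type II genes, KRT80 and KRT2. KRT80, found in many epithelia, was placed in this class and held 214 of the 218 TPM of its type II genes. The difference between the types was not tested, and 67.2% of protein-coding entries met the same limit. KRT16, a type I keratin of injured and rapidly dividing epidermis, was at 23.7, 28.2 and 24.8 TPM. KRT15, a type I keratin of basal cells and hair follicle stem cells, was at 7.41, 8.88 and 11.9 TPM, highest in replicate 3. With GENCODE exon lengths KRT15 averaged 3.35 TPM in place of 9.39 TPM, and moved from rank 9 to rank 13 among the 17 detected keratins. KRT17, a keratin of basal cells and skin appendages, was at 8.02, 8.72 and 8.01 TPM, and KRT24, a type I keratin of differentiating keratinocytes, at 5.85, 8.36 and 7.33 TPM. KRT14, the type I basal keratin, was at 1.17, 1.84 and 1.43 TPM on 19, 30 and 27.5 counts. KRT2, a type II keratin of the uppermost epidermis, was at 2.68, 3.28 and 2.65 TPM.

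The type II partners of these chains were mostly under the limit. KRT5, the partner of KRT14 and KRT15, had 4 counts in each library (exact 95% Poisson interval 1.09 to 10.2 for each). KRT6A, a partner of KRT16 and KRT17, had 10.33, 6.83 and 9.67 counts, KRT6B at most 5.33, and KRT6C at most 1.83. KRT1, the partner of KRT10, had 2, 0 and 0 counts. KRT4, which pairs with KRT13 in the mouth and oesophagus, had 5, 1 and 3 counts, and KRT13 had 0, 1 and 0. The others of this class (KRT3, KRT9, KRT12, KRT76, KRT77, KRT78 and KRT79) had at most 2 counts in any library. Of the 10 textbook pairs listed, 2 had both members detected, KRT8 with KRT18 and KRT7 with KRT19.

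Sequence shared between copies limits some of these values. KRT6A, KRT6B and KRT6C share 39.1, 47.1 and 53.6% of their 50-base words with another gene, mostly with one another. KRT14 shares 23.8% and KRT16 19.9%, partly with each other and partly with pseudogenes. The pseudogene KRT16P3 had 16.5, 22.58 and 22.58 counts, and 7 other keratin pseudogenes had fewer than 10 counts in every library. Of the 55 keratin genes 17 had at least 1 value that was not whole.

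The hair keratins that were detected were 3 adjacent type II genes, all at low levels. Of 6 type II hair keratins 3 were detected, and of 11 type I hair keratins none reached 10 counts in each library. Among protein-coding entries 67.2% met the same limit, and the difference between the types was not tested. KRT81, a keratin of the hair cortex, was at 12.3, 14.0 and 9.07 TPM on 232, 266 and 203.5 counts. KRT86 was at 3.98, 4.28 and 3.36 TPM, and KRT83 at 1.27, 1.57 and 1.20 TPM. For each of the 3 genes replicate 2 was highest and replicate 3 lowest. The 17 hair keratins together made up 0.202 ± 0.0496% of keratin TPM (0.400% with GENCODE exon lengths), and KRT81 held 66.1 ± 1.61% of that.

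The 3 detected hair keratins lie next to one another on chromosome 12, KRT81 at 52285913 to 52291515, KRT86 at 52301865 to 52309163 and KRT83 at 52314301 to 52321398. KRT81 shares 37.6% of its 50-base words with KRT86, so the division between them is uncertain. KRT32, a type I keratin of the hair cuticle, came nearest to detection among type I hair keratins with 12, 16 and 7 counts. The hair keratins KRT31, KRT33A, KRT33B, KRT34, KRT35, KRT36, KRT37, KRT38, KRT39, KRT40, KRT82, KRT84 and KRT85 had at most 3 counts in any library. Those with copies on alternate contigs carry the limit given above for such copies. Of 9 inner and companion sheath keratins of the hair follicle KRT75 was detected, with 32, 21 and 28 counts (1.21 ± 0.276 TPM). KRT73 had at most 4 counts, and KRT25, KRT26, KRT27, KRT28, KRT71, KRT72 and KRT74 at most 3, as did KRT222 with none.

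Most detected genes lay at both ends of the chromosome 12 cluster and at 1 end of the chromosome 17 cluster. On chromosome 12, where 27 members span 784 kb, the first 5 genes from KRT80 to KRT83 and the last 2, KRT8 and KRT18, were detected. Between them lay only KRT75 and KRT2, and the longest undetected run was of 8 genes, KRT6B to KRT73 (52446651 to 52618559). On chromosome 17, where 28 members span 969 kb, 5 of the last 6 genes were detected, KRT15, KRT19, KRT14, KRT16 and KRT17, with KRT9 the exception. The other 3 detected genes there, KRT24, KRT10 and KRT23, each lay between undetected keratin genes, and KRT222 at the opposite end had no counts. The longest undetected run was of 12 genes, KRT39 to KRT13 (40958417 to 41505613). KRT19 at 3256 ± 605 TPM lay between KRT15 at 9.39 ± 2.29 TPM and KRT9, which had 2, 0 and 0 counts. KRT8 had as its other neighbour KRT78, with 0, 1 and 1 counts.

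**Figure D3:**
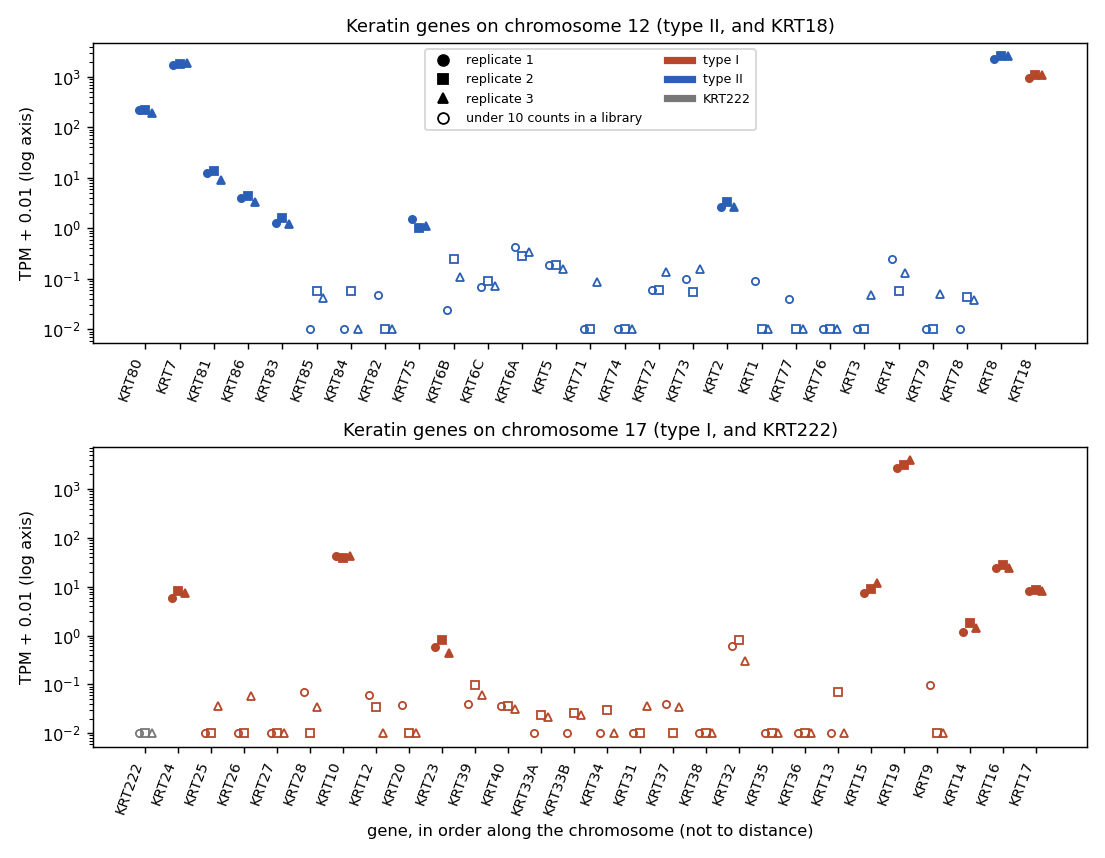
TPM plus 0.01 on a log axis (y) for keratin genes in order along chromosome 12 (top) and chromosome 17 (bottom) (x), with 1 point per library. Filled points mark genes with at least 10 counts in each library: 9 of 27 on chromosome 12 and 8 of 28 on chromosome 17.

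Summed over each family, type I and type II mRNA were close to equal. Type II genes summed to 4251, 4626 and 4673 TPM and type I genes to 3776, 4302 and 5079 TPM in replicates 1, 2 and 3. The log2 ratio of type II over type I was 0.17, 0.10 and −0.12, with a mean of 0.05 ± 0.15 (n = 3, exact two-sided sign-flip permutation p = 0.75, where 0.25 is the smallest that 3 libraries allow). The sum does not fix the direction: without division by length the ratio was 0.55, and with GENCODE lengths −0.55. Outside the simple keratins, type II exceeded type I by 1.33 ± 0.15 on the log2 scale (exact two-sided sign-flip permutation p = 0.25). This excess rested on KRT80 alone, which held 214 of the 218 TPM of type II genes of stratified epithelia. Type I genes of that class summed to 88.1, 95.5 and 95.4 TPM in replicates 1, 2 and 3. Type II hair keratins summed to 17.5, 19.9 and 13.7 TPM. With KRT80 left out, type II was therefore below type I, and that ratio was not tested.

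The KRT8 to KRT18 ratio was nearly the same in each library. Its log2 value was 1.2543, 1.2536 and 1.2551, a 2.39-fold excess of KRT8 in TPM (SD 0.00075 on the log2 scale; exact two-sided sign-flip permutation p = 0.25, the same after adjustment over the 2 pairs tested). Counting error alone gives a standard error of 0.013 for 1 library, so the spread was smaller than that error and the closeness cannot be read as precision. The ratio of KRT8 over KRT7 was 0.44, 0.48 and 0.43, with an SD of 0.026 against a counting error of 0.00996. That of KRT19 over KRT18 was 1.49, 1.55 and 1.87, with an SD of 0.20 against a counting error of 0.013. The spread of the KRT19 ratio came mainly from replicate 3. The ratio of KRT7 over KRT19 was −0.68, −0.78 and −1.04 (mean −0.83 ± 0.19; exact two-sided sign-flip permutation p = 0.25, also 0.25 adjusted).

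**Figure D4:**
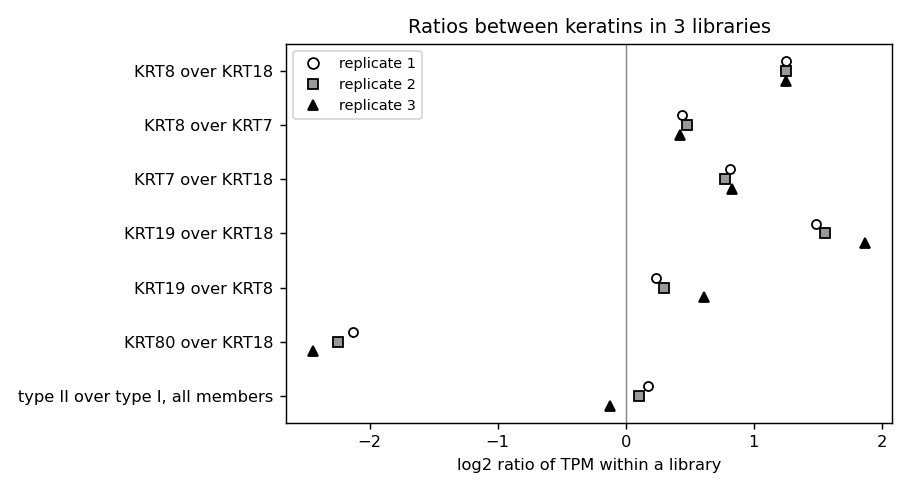
Log2 ratios of TPM within each library (x) for 7 comparisons of keratins (y), with 1 point per replicate and a line at equal levels. The points of KRT8 over KRT18 coincide near 1.25, while those of KRT19 over KRT18 reach from 1.49 to 1.87.

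Counts of 8 of the 17 detected keratins varied between libraries beyond Poisson sampling (chi-square test on edgeR-scaled counts, Benjamini-Hochberg adjusted over 14453 genes). Over all genes tested 41.6% did so, a share close to that of the keratins. KRT19, with 1482, 1733 and 2222 CPM after scaling, had the largest chi-square of the keratins (4463, 2 degrees of freedom) and a range of 0.58 on the log2 scale. KRT8 (1937, 2166 and 2235 CPM), KRT7 (1071, 1170 and 1250 CPM) and KRT18 (550, 616 and 635 CPM) were lowest in replicate 1 and highest in replicate 3, each within 1.17-fold. KRT15 had the same order, at 5.05, 6.13 and 8.45 CPM (adjusted chi-square p = 1.23e-05 with edgeR scaling). KRT80 and KRT81 were lowest in replicate 3 (adjusted chi-square p = 1.32e-10 and 0.00037 with edgeR scaling), and KRT24 was lowest in replicate 1 (0.0273).

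Measured against the spread of genes of like abundance, none of these keratins passed. With edgeR's trended negative binomial dispersion, 0 of 17 keratins passed, against 1.22% of all genes tested, and 2 had an unadjusted p under 0.05, KRT19 (adjusted p = 0.0916) and KRT15 (adjusted p = 0.796). Without replicate 3, 5 of 18 keratins tested passed the Poisson test (KRT7, KRT8, KRT18, KRT19 and KRT24), against 8.04% of all genes tested. All of these but KRT24 had the highest counts of the family, at which a Poisson test can pass small differences. The summed TPM of the 8 luminal markers was also highest in replicate 3, at 3287, 3496 and 3728, but the markers did not move together. XBP1, GATA3 and FOXA1 were highest in replicate 3. EPCAM, AGR2 and CDH1 were lowest there, and ELF3 and ESR1 were highest in replicate 2. The part of such differences in the keratin values was not tested.

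**Figure D5:**
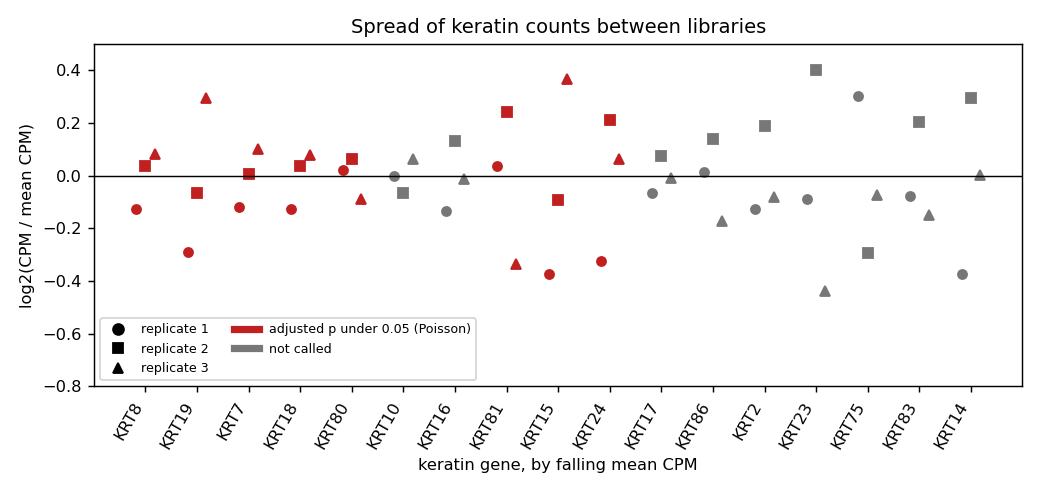
Log2 of scaled CPM over the mean of the 3 libraries (y) for the 17 detected keratins, ordered by falling mean CPM (x), with 1 point per library. Red marks the 8 genes with an adjusted p under 0.05 in the Poisson chi-square test, and KRT19 shows the widest spread among the 7 most abundant genes.

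Genes for proteins that anchor or bind keratin filaments were detected in 21 of 25 cases, against 67.2% of protein-coding entries. Their median over all 25 was 35.7 TPM, against 7.93 TPM over all protein-coding entries and 25.7 TPM over the detected ones. Among 13 desmosome genes 10 were detected, led by JUP (plakoglobin) at 743 ± 112 TPM, DSP (desmoplakin), which links keratins to the desmosome, at 134 ± 13.4 TPM, and PKP3 at 90.6 ± 7.19 TPM. The epidermal cadherin DSG1 had 1, 2 and 0 counts, while DSG2 of simple epithelia was at 52.2 ± 4.19 TPM. All 6 plakins were above 10 TPM, led by PLEC (plectin) at 150.2 ± 17.1 TPM, EPPK1 at 113 ± 6.28 TPM and EVPL at 47.1 ± 0.606 TPM. Of 6 other keratin-binding genes 5 were detected, with the casein kinase gene CSNK1A1 at 667 ± 46.2 TPM, FAM83H, which brings that kinase to keratin filaments, at 95.3 ± 5.13 TPM, and TRADD at 35.7 ± 4.71 TPM.

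Other cytoplasmic intermediate filaments were low beside the keratins. None of 5 type III and 6 type IV genes reached 10 TPM. Their medians were 1.73 and 0.0514 TPM, against 7.93 TPM over all protein-coding entries. The highest were PRPH at 3.65 ± 0.413, SYNM at 3.60 ± 0.0528 and VIM, the filament of mesenchymal cells, at 3.27 ± 0.0515 TPM, followed by SYNC at 1.73 ± 0.353, NES at 1.56 ± 0.407 and NEFH at 0.103 ± 0.0291 TPM. The lens filament gene BFSP1 was at 6.99 ± 0.531 TPM and BFSP2 had no counts. The nuclear lamins LMNA (313 ± 18.1 TPM), LMNB1 (56.4 ± 8.55 TPM) and LMNB2 (53.2 ± 6.25 TPM) were all detected.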

How the data were processed

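Poly-A RNA of 3 CAMA1 libraries was sequenced with a stranded Illumina kit, per the labels' protocols. The authors deposited expected counts per gene, some of them fractional, with gene lengths; TopHat, Subread and featureCounts with hg38 were used, per the submitters' processing notes, and their versions and settings, including the use of strand, are not stated in the labels or headers used here. TPM and CPM were computed from the deposited counts and lengths. Library totals were 26473939, 26592335 and 30745412 counts. Poisson intervals and detection limits reflect counting error alone.

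The members and gene lists were chosen with earlier results of these data known. Every keratin with at least 10 counts in each library was named, the others in groups by role, and the 3 highest genes of each role of the other lists. Counts were rounded, filtered and TMM-scaled in edgeR 4.0.16 (factors 1.01, 1.00 and 0.990), and tested for variation between libraries with a chi-square test and Benjamini-Hochberg adjustment over all genes tested, at 0.05; the test was checked on simulated data. DESeq2 1.42.0 size factors, an unfiltered table, a negative binomial dispersion, protein-coding entries only, other count limits, CPM, other lengths, a pseudocount of 1 in place of 0.01 TPM in log2 ratios, and leaving out each library were alternatives. Shared sequence was counted in 50-base words of GENCODE 29 transcripts, with matches on either strand included. Biotypes were taken from GENCODE 29 and RefSeq by symbol, and 1084 entries had no match.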

Additional observations from a re-analysis of the deposited data

How the results depend on the processing

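The count of 17 detected keratins was 26 with a minimum of 1 count, 16 with 20 counts or with a mean of 1 TPM, and 17 to 18 when each replicate was left out in turn. The log2 ratio of type II over type I keratins, 0.05, was −0.55 with GENCODE exon lengths, and −0.0077 to 0.14 when a replicate was left out; the negative value was without replicate 1. Gene models that differ in length shift this ratio by construction. The simple epithelial share of keratin TPM, 96.3%, was 93.4% in CPM and also 93.4% with GENCODE lengths, and 96.0 to 96.5% without a replicate. The hair keratin share, 0.202%, was 0.400% with GENCODE lengths and 0.186 to 0.230% without a replicate. The log2 ratio of KRT8 over KRT18, 1.25, stayed positive in every alternative run, at 1.82 in CPM and 0.72 with GENCODE lengths. The count of 8 keratins varying between libraries was 0 with the negative binomial dispersion and 5 to 7 without a replicate, with 5 without replicate 3; it was 8 with DESeq2 size factors, without a filter and over protein-coding entries. No paired analysis was possible because the series has 1 group. Among keratins with at most 3 counts in any library, no order of levels was read at this depth.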

Other observations

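Regulators of keratin genes and of keratinization were examined as further lists. Among protein-coding entries 67.2% had at least 10 counts in each library, the limit for detected. All 16 epithelial transcription factor genes of the list were detected, with GATA3 at 803 ± 77.7 TPM, FOXA1 at 487 ± 51.1 TPM and TFAP2A at 319 ± 32.4 TPM highest. TP63, a regulator of basal keratins, was the lowest of them at 0.682 ± 0.195 TPM. Of 6 transcription factor genes known from hair follicles 4 were detected, a share close to that of protein-coding entries. These were HOXC13, known to activate hair keratin genes, at 61.0 ± 6.78 TPM, VDR at 34.9 ± 5.08 TPM, MSX2 at 18.5 ± 0.382 TPM and DLX3 at 7.53 ± 0.533 TPM. FOXN1 had 9, 2 and 2 counts.

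Of 14 cornified envelope genes 4 were detected, against 67.2% of protein-coding entries. CASP14, a caspase of terminally differentiating keratinocytes, was at 44.3 ± 11.1 TPM on 1121, 1254 and 2102 counts, highest in replicate 3. TGM1 stood at 5.91 ± 0.555 TPM, CNFN at 5.51 ± 1.65 TPM and TCHH at 0.913 ± 0.283 TPM, while LOR had no counts. Of 93 keratin-associated protein genes 1 was detected, KRTAP5-1 at 2.48 ± 0.433 TPM, and 89 never exceeded 3 counts. Among protein-coding entries 24.0% were that low.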
